A study of Mus musculus with 7 samples.

Results

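Oct4GFP+ cells obtained in 5C medium were compared with Oct4GFP+ cells obtained in mES medium, across all genes. The members were the 2 libraries whose titles name these sorted cells, out of 7 libraries in all, with 1 library for each medium and no replicates. Each library gave a level for 29267 Ensembl genes, and the 11479 genes that reached 5 TPM in either of them were compared. TPM is the share of transcripts that a gene takes, corrected for transcript length, on a common scale for all libraries, so that levels can be set side by side between genes.

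The cells came from OG2 mouse embryonic fibroblasts, in which egfp is driven by the Oct4 promoter with its distal enhancer. Both groups carried retroviral Oct4, Sox2, Klf4 and c-Myc, given on days 0 and 1, and changed to mES or 5C medium on day 2. mES medium held DMEM, fetal bovine serum, non-essential amino acids, GlutaMax, sodium pyruvate, β-mercaptoethanol, vitamin C and LIF. 5C medium was serum-free DMEM/F12 with N2 supplement (insulin, transferrin, putrescine, progesterone and selenite), bFGF, β-mercaptoethanol, vitamin C and LIF. The media thus differ in serum, basal medium, N2, bFGF and added non-essential amino acids, GlutaMax and sodium pyruvate at the same time. The part of each cannot be told apart. Cells were sorted by FACS on day 15, at passage 0 as labelled, and the sort itself rests on activity of the Oct4 reporter in both groups. The other 5 libraries were the Oct4GFP- cells of both media, converted 5C-Oct4GFP+ cells, and R1 embryonic stem cells converted to the primed state. The 5C-Oct4GFP+ cells were converted in naive or in primed medium to passage 20. Naive medium held LIF with CHIR99021 and PD0325901, inhibitors of GSK3 and of the ERK kinase MEK. By the study's methods, primed R1 cells were maintained with CHIR99021 and IWR-1 in place of bFGF and activin A.

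Mouse pluripotent cells can be held in a naive state, which resembles the early epiblast, or in a primed state, which resembles the epiblast after implantation. FGF signalling through ERK moves cells out of the naive state. Immediate early genes and the feedback inhibitors that ERK induces are among the genes that respond to it. LIF acts through STAT3, and Wnt through β-catenin, to hold the naive state, whereas Otx2, Pou3f1, Fgf5 and the de novo DNA methyltransferases come on as cells leave it.

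The expected counts came to 10443952 for 5C-Oct4GFP+ cells and 6108252 for mES-Oct4GFP+ cells, within a range of 6108252 to 11496615 over the 7 libraries. All 8 pluripotency markers checked, from Pou5f1 to Tdgf1, were above 5 TPM in both libraries, with summed levels of 9738 TPM for 5C-Oct4GFP+ and 6653 TPM for mES-Oct4GFP+ cells. The summed level of 11 fibroblast markers was 12.2 TPM with 5C and 15.8 TPM with mES medium, against 330 TPM for 5C-Oct4GFP- and 632 TPM for mES-Oct4GFP- cells. Markers of macrophages, trophoblast, primitive endoderm and neural cells summed to at most 11.6 TPM in either library, with 5 of 6 macrophage markers at 0 in each library, 4 of them the same, and those of endothelium to 48.6 TPM with 5C and 11.5 TPM with mES medium. The mES-Oct4GFP+ library lay close to the naive converted library, although the labels give these different media and passages. Only 5.63% of 10726 genes were at least 2-fold apart between these libraries, against 4.85% between both primed libraries and 23.9% between 5C-Oct4GFP+ and mES-Oct4GFP+ cells. What this closeness stems from was not tested. The paper describes the Oct4GFP+ colonies typical of mES medium as closer to naive cells. The identity of the mES-Oct4GFP+ library was not checked beyond its label, and this doubt bears on every difference given here. No second such library was analysed here.

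On the log2(TPM + 1) scale, 1434 genes (12.5% of those compared) were higher by 2-fold or more in 5C-Oct4GFP+ cells and 1305 (11.4%) were lower by 2-fold or more. These calls are descriptions of size, with no test and no p-value, since 1 library per group gives no estimate of the spread between cultures. For single genes the ratio of TPM is given with an exact Clopper-Pearson 95% interval, which covers the counting of reads and nothing else, and 99.1% of the called genes had an interval wholly above or below 1. The median difference over all genes compared was -0.06. Here a gene is called higher or lower when it passed the 2-fold mark, and for a list of genes the counts stand against the 12.5% and 11.4% of all genes. A gene silent in mES-Oct4GFP+ cells enters only through its level in 5C-Oct4GFP+ cells and the reverse, so lists with low genes are given with the number listed and the number compared.

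**Figure D1:**
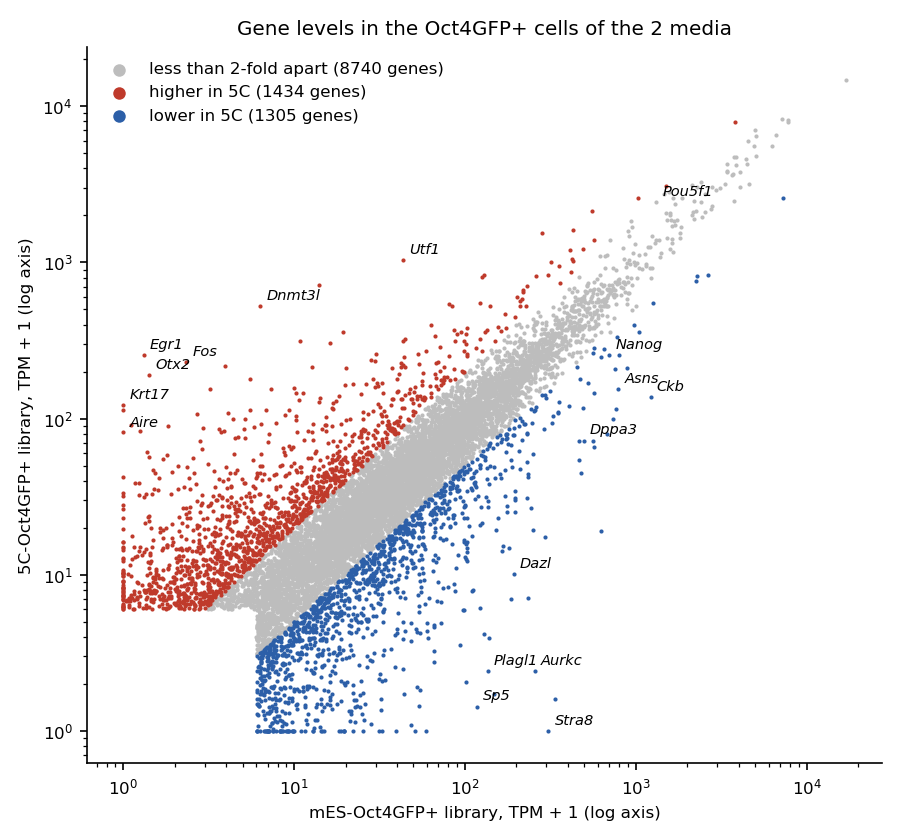
Level of each of the 11479 genes compared, as TPM + 1 on log axes, in mES-Oct4GFP+ cells (x axis) and 5C-Oct4GFP+ cells (y axis); points are genes, coloured by the 2-fold call. Egr1, Otx2 and Dnmt3l stand far above the diagonal, Stra8, Sp5 and Aurkc far below it, and Pou5f1 lies near it.

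Immediate early genes, transcription factors and regulators switched on within minutes of growth factor signals, were much higher in 5C-Oct4GFP+ cells. Of 18 listed, 15 were compared and 14 were called higher, none lower, with a median difference of 3.38. Egr1, a zinc finger factor induced through ERK, was at 253 TPM with 5C and 0.32 TPM with mES medium, a ratio of 791 (95% interval 314 to 2950). Fos, a subunit of AP-1, was at 228 against 1.33 TPM (ratio 171, interval 90.2 to 376). Its partner Jun was at 108 against 3.08 TPM (ratio 35.1, interval 24.7 to 51.3). Fos and Jun were thus near silence with mES medium. Fosb, another AP-1 subunit, was at 30.2 against 0.33 TPM. The mES-Oct4GFP+ values of Egr1, Fos and Jun lay beside those of the naive library, at 0.50, 1.87 and 2.51 TPM, and the 5C-Oct4GFP+ values above the primed libraries, in which Egr1 was at 83.8 and 64.9 TPM. In Oct4GFP- cells the same genes were high in both media, with Egr1 at 568 TPM in 5C and 500 TPM in mES medium and Fos at 821 and 815 TPM. The median of the 15 genes between the media in Oct4GFP- cells was 0.01. What sorting and other handling added to the levels of these genes was not tested. The gene of the list that was not called, Btg2, an antiproliferative gene named here after its values were seen, was at 75.6 against 47.7 TPM. Myc was at 211 against 74.0 TPM, but any reads from the c-Myc retrovirus could not be told apart from those of the gene itself in these totals.

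Feedback regulators of the FGF and ERK pathway were higher as well. All 15 listed were compared, 10 were called higher and none lower, with a median difference of 1.45. Dusp4 and Dusp6 encode phosphatases that switch off ERK. Dusp4 was at 37.8 TPM in 5C-Oct4GFP+ against 0.23 TPM in mES-Oct4GFP+ cells (ratio 164, interval 46.2 to 1388), and Dusp6 at 73.7 against 3.53 TPM (ratio 20.9, interval 14.7 to 30.7). Spry4, an inhibitor of receptor signalling upstream of ERK, was at 22.5 against 0.40 TPM. Ier3, a stress-induced ERK target, was at 40.6 against 1.42 TPM. The ETS factors, which are transcribed under FGF control, moved less. Etv4 was at 52.6 against 17.9 TPM, and Etv5 at 383 against 213 TPM, which is below the 2-fold mark (difference 0.84). In Oct4GFP- cells the feedback list differed in the same direction, with a median of 0.82 over the same genes, and Dusp6 at 119 in 5C and 34.7 TPM in mES medium.

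FGF ligands and receptors gave no common direction. Of 17 listed, 8 were compared, 3 called higher and 2 lower. Fgf4, the main FGF of mouse pluripotent cells, was at 199 against 104 TPM (difference 0.93), and its receptor Fgfr1 at 60.4 against 54.6 TPM (difference 0.14). Fgfrl1, a receptor without a kinase domain, was called lower, at 4.17 against 26.0 TPM. Fgf15 was at 6.75 against 0.35 TPM and Fgf3 at 1.31 against 7.10 TPM. The median difference was 0.73 over ligands and receptors, beside 1.45 over the feedback regulators.

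**Figure D2:**
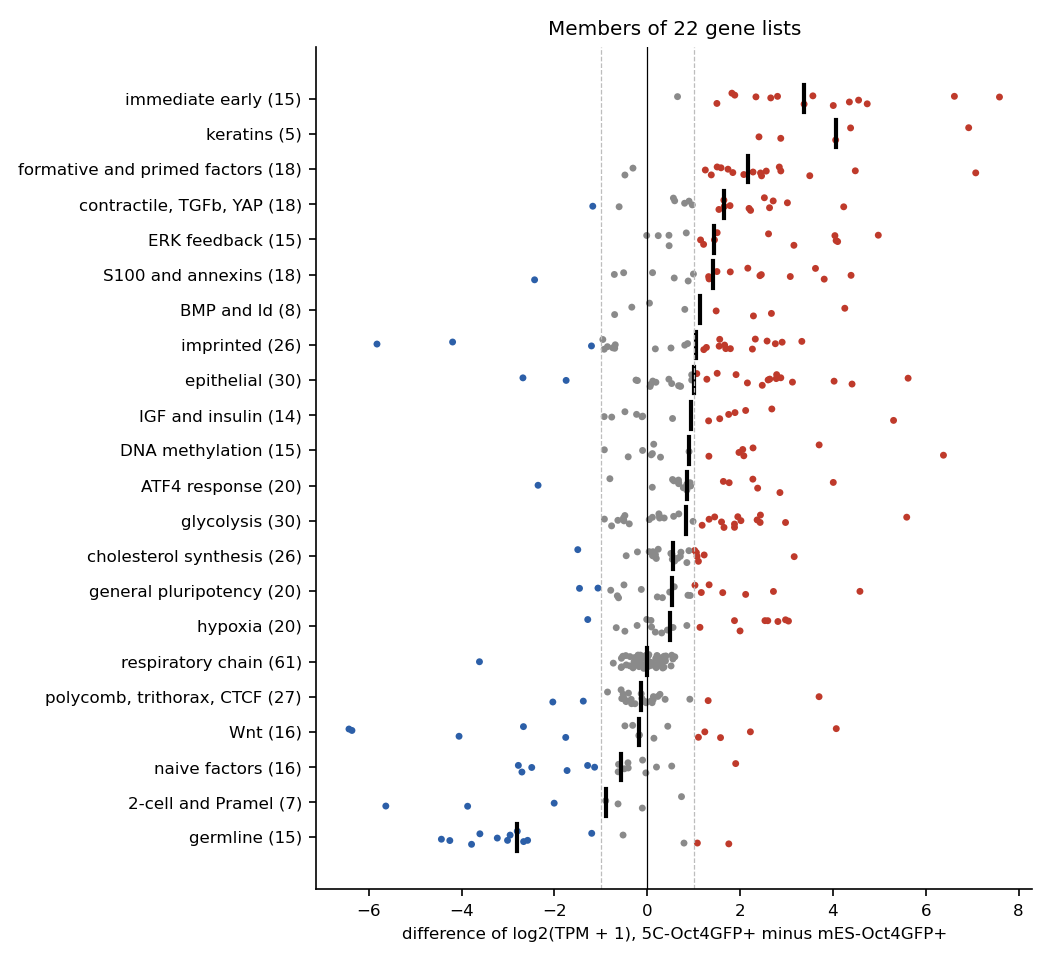
Difference of log2(TPM + 1), 5C-Oct4GFP+ minus mES-Oct4GFP+ (x axis), for each compared member of 22 gene lists (rows, number compared in brackets); points are genes, red at 2-fold higher, blue at 2-fold lower and grey between, black ticks mark the list median and dashed lines the 2-fold mark. Immediate early genes and keratins lie furthest to the right, germline genes to the left, and respiratory chain genes around 0.

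Formative and primed factors, which mark the exit from the naive state, were higher in 16 of the 18 genes compared of 19 listed, and none was called lower (median difference 2.18). Otx2 (chromosome 14, 48657677 to 48673819, minus strand, GRCm38), a homeobox factor that starts this exit, was at 189 TPM with 5C and 0.41 TPM with mES medium. That is a ratio of 462 with an interval of 159 to 2256, and the value in 5C-Oct4GFP+ cells lay between those of the primed libraries, 214 TPM in converted cells and 134 TPM in R1 cells. Pou3f1, its partner POU factor, was at 32.1 against 0.48 TPM (ratio 66.9, interval 30.7 to 184). Grhl2, a factor of epithelial enhancers in the exit, was at 43.7 against 5.08 TPM. Fgf5, the classical marker of the primed epiblast, was also higher, at 11.7 against 0.12 TPM, but 175 TPM in the converted primed cells lay far above it. The level of Fgf5 in 5C-Oct4GFP+ cells was thus raised over the mES library and still low next to the primed state. Lef1 and Tead2, named after their values were seen as the list members not called, were at 31.2 against 43.9 TPM and 97.4 against 121 TPM.

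Genes of the primitive streak, which primed cultures express, were not raised in common. Of 13 listed only 3 were compared. T, the streak factor brachyury, was lower in 5C-Oct4GFP+ cells at 0.24 against 6.93 TPM, and Gsc at 0.73 against 5.28 TPM, whereas Eomes was higher at 7.49 against 0.60 TPM. The primed libraries held between 81.2 and 115 TPM of Gsc and Eomes, so both were low in both Oct4GFP+ libraries. Nodal and Activin pathway genes were compared for 13 of 16 listed, with 3 higher and none lower (median 0.19). Nodal itself was at 40.3 against 34.9 TPM, Lefty1 at 27.1 against 24.4 TPM, and Lefty2, also a secreted inhibitor of Nodal, was called higher at 58.1 against 25.4 TPM. Inhbb, a subunit of Activin B, was higher at 8.59 against 0.50 TPM.

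The pluripotency genes common to both states were expressed in both libraries, and they split in direction. All 20 listed were compared, with 7 called higher and 2 lower (median 0.53). Utf1, a chromatin-associated factor, stood out at 1034 TPM in 5C-Oct4GFP+ against 42.2 TPM in mES-Oct4GFP+ cells (ratio 24.5, interval 21 to 28.8), above all other libraries, of which the highest held 528 TPM. Eras, a constitutively active Ras of embryonic stem cells, was at 42.9 against 5.66 TPM. Lin28a, which blocks let-7 maturation, was at 109 against 24.2 TPM, and Tdgf1, the Nodal co-receptor Cripto, at 710 against 229 TPM. Nanog was lower, at 253 against 697 TPM (ratio 0.363, interval 0.347 to 0.380). Its level in 5C-Oct4GFP+ cells lay between the primed libraries, at 118 and 131 TPM, and the naive library, at 735 TPM. Pou5f1 was at 2429 against 1321 TPM (ratio 1.84, interval 1.78 to 1.89) and Sox2 at 459 against 328 TPM, both below the 2-fold mark. For Pou5f1, Sox2 and Klf4, as for Myc, retroviral reads are part of the gene totals, and no library here separates them.

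Naive factors were lower for some members and level for others. Of 17 listed, 16 were compared, 6 called lower and 1 higher (median -0.55). Dppa3, also known as Stella, which protects maternal methylation marks, was at 71.2 TPM with 5C and 494 TPM with mES medium (ratio 0.144, interval 0.127 to 0.164). Tfcp2l1, a STAT3 target that sustains self-renewal, was at 29.1 against 194 TPM (ratio 0.150, interval 0.141 to 0.158). Spic was at 4.40 against 29.3 TPM. Each of Dppa3, Tfcp2l1 and Spic was still higher in 5C-Oct4GFP+ cells than in either primed library, where the highest value was 2.16 TPM. Esrrb, Klf2 and Zfp42, core factors of the naive network, changed little. Esrrb was at 230 against 246 TPM, Klf2 at 254 against 338 TPM and Zfp42 at 219 against 337 TPM, with at most 9.09 TPM of any of them in the primed libraries. Tbx3 was at 48.0 against 74.6 TPM. The member called higher was Klf4, at 522 against 138 TPM, one of the retroviral factors.

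**Figure D3:**
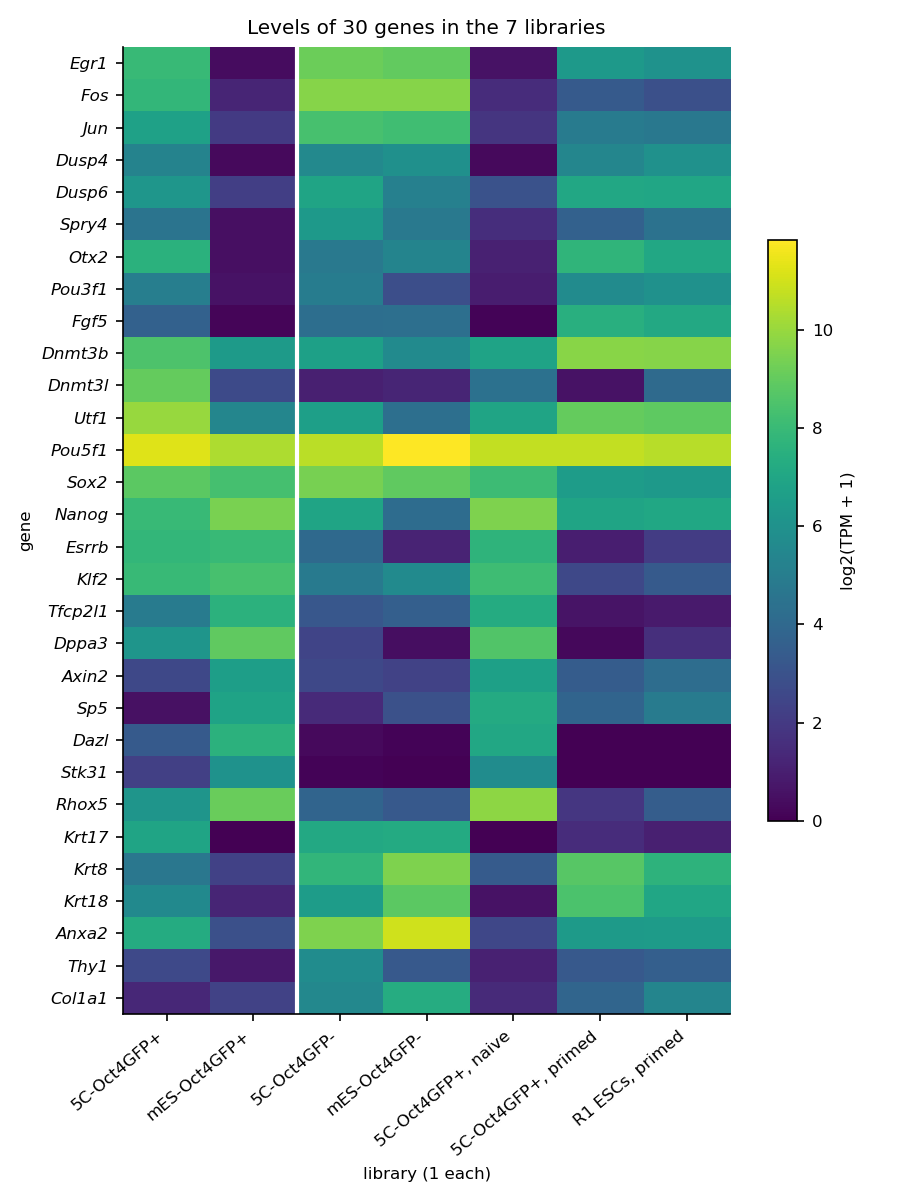
Levels of 30 genes (rows) in the 7 libraries (columns, 1 each) as log2(TPM + 1), from dark (0) to yellow (highest); the white line sets the 2 libraries compared apart from the other 5. In 5C-Oct4GFP+ cells Esrrb and Klf2 are near the mES-Oct4GFP+ level while Otx2 and Egr1 are far above it.

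When genes were classed from the 5 libraries outside the comparison, at a 4-fold difference, most naive-class genes compared were lower and most primed-class genes compared were higher in 5C-Oct4GFP+ cells. Of 852 genes higher in the naive library than in both primed libraries, 752 were compared, and 425 (56.5%) were called lower in 5C-Oct4GFP+ cells and 45 higher, with a median difference of -1.23. Their median level was 14.3 TPM with 5C and 32.4 TPM with mES medium, beside 31.9 TPM in the naive library and 0.79 TPM in the converted primed library. Of 1030 genes higher in both primed libraries, 552 were compared, and 392 (71.0%) were called higher and 12 lower (median 1.60). Their median level was 14.3 TPM in 5C-Oct4GFP+, 4.10 TPM in mES-Oct4GFP+ and 31.6 TPM in converted primed cells, and 2.44 TPM in the naive library. The primed medians cover only the 552 of 1030 genes that reached 5 TPM in an Oct4GFP+ library. A further class, called somatic as a label only, held 301 genes higher in both Oct4GFP- libraries than in the naive and primed ones. The rule also takes in immediate early genes such as Egr1, at 568 and 500 TPM in Oct4GFP- cells, and Fos, at 821 and 815 TPM. 5C-Oct4GFP- cells also held 119.5 TPM of Nanog, so the label names no cell type. Of the 167 genes of this class compared, 140 (83.8%) were called higher in 5C-Oct4GFP+ cells and 3 lower (median 2.46). Their median was 18.4 against 2.64 TPM, and 92.1 TPM in 5C-Oct4GFP- cells. Their levels summed to 8814 TPM with 5C and 1457 TPM with mES medium, against 29805 and 43973 TPM in the Oct4GFP- libraries, while the 11 fibroblast markers summed to 12.2 and 15.8 TPM in the Oct4GFP+ libraries. Whether more cells of another type or more RNA per cell gave these levels cannot be told apart in bulk samples. With mES medium, the somatic and primed genes compared had medians of 2.64 and 4.10 TPM, below the 5 TPM filter. Most of them thus entered through their level with 5C medium, which favours higher calls. Only 9 genes formed the class higher in naive and primed libraries than in both Oct4GFP- libraries, with 2 called higher and 5 lower.

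**Figure D4:**
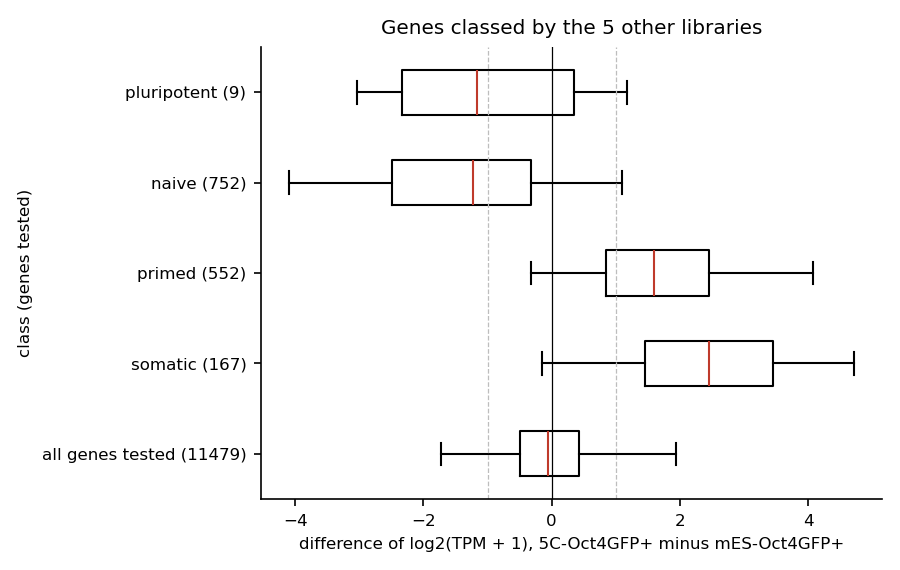
Difference of log2(TPM + 1), 5C-Oct4GFP+ minus mES-Oct4GFP+ (x axis), for genes classed by the other 5 libraries (rows, number compared in brackets); boxes give the quartiles with the median in red and whiskers the 5th and 95th percentiles. Somatic and primed genes lie to the right of all genes compared, with medians of 2.46 and 1.60, and naive genes to the left, with a median of -1.23.

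Genes of DNA methylation were higher for the de novo enzymes and level for the maintenance enzyme. Of 16 listed, 15 were compared, 7 called higher and none lower (median 0.90). Dnmt3l (chromosome 10, 78041947 to 78063622, plus strand), the cofactor of the de novo methyltransferases, was at 525 TPM with 5C and 5.31 TPM with mES medium, a ratio of 98.9 with an interval of 68.4 to 149. No other library held more than 20.2 TPM of Dnmt3l, including both primed libraries. Dnmt3a was at 97.1 against 19.2 TPM and Dnmt3b at 366 against 85.8 TPM. The primed libraries held 844 and 823 TPM of Dnmt3b, so Dnmt3b and Dnmt3l do not order the libraries in the same way. Tet1, which oxidises methylcytosine, was at 132 against 51.8 TPM, and Gadd45g, a stress-induced regulator, at 146 against 10.3 TPM. Dnmt1, the maintenance enzyme, was at 150 against 161 TPM (ratio 0.933, interval 0.890 to 0.978), and Tet2 at 15.9 against 21.4 TPM. Aire, known as a regulator of thymic self-antigens, was at 112 TPM with 5C and 0 with mES medium, at least 148-fold higher against a floor of 3 counts in the library. Its annotated position, chromosome 10, 78030022 to 78043610 on the minus strand, overlaps Dnmt3l, and the libraries were not stranded, so reads of Aire and Dnmt3l cannot be told apart where they overlap.

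Germline genes, many of which are kept silent in somatic cells by promoter methylation, had the lowest median among lists with at least 5 genes compared. Of 20 listed, 15 were compared, 11 called lower in 5C-Oct4GFP+ cells and 2 higher, with a median difference of -2.80. Dazl, an RNA-binding protein of germ cells, was at 9.10 TPM with 5C and 191 TPM with mES medium (ratio 0.0475, interval 0.0399 to 0.0562). Tex101, a germ cell surface protein, was at 0.18 against 24.5 TPM, and Sohlh2, a germ cell transcription factor, at 3.90 against 58.6 TPM. Stk31, a germ cell kinase, was at 3.76 against 64.6 TPM (ratio 0.0582, interval 0.0432 to 0.0770). The naive library held 135 TPM of Dazl and 52.6 TPM of Stk31, less than 2-fold below mES-Oct4GFP+ cells, and 25.7 TPM of Sohlh2, more than 2-fold below them. Both primed and both Oct4GFP- libraries held at most 0.24 TPM of Dazl, Stk31, Tex101 and Sohlh2. 5C-Oct4GFP+ cells therefore expressed Dazl, Stk31 and Sohlh2 above the primed and Oct4GFP- libraries and below the mES-Oct4GFP+ library. The 2 members called higher, Mael and Piwil2, both of the piRNA pathway and named after their values were seen, were at 12.7 against 3.06 TPM and 22.4 against 10.1 TPM.

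The promoters of these germline genes are shown because the E-box letters CACGTG, the same on both strands, recurred in them on both sides of the calls. RefSeq windows of 300 bases (GRCm38.p6), 250 before and 50 after the start, were found for 14 of the 15 genes compared, with no entry for Piwil2. CACGTG lay in a window of 7 of the 14 genes, against 8.09% of all 27025 genes with windows of that length. Because the letters were chosen for recurring here, this count is a description and no test of an excess. Among genes compared it lay in 12.5% of those lower, 10.2% of those higher and 12.6% of those not called. It was present in 4 of the 11 genes called lower (Stk31, Hormad1, Brdt and Slc25a31), in Mael, and in Ddx4 and Sycp3, which were not called, so that the letters did not separate lower genes from the others. The median number of CpG dinucleotides in the 14 windows was 20.5, with a range of 5 to 38, against a median of 8 over all genes and of 23 over the genes compared and not called. Below, 3 promoters of lower genes and that of Mael are given 5′ to 3′ on the strand of the gene, with CACGTG in capitals. Those of Stk31 (chr6:49395289-49395588, plus strand, 29 CpG), Hormad1 (chr3:95559427-95559726, plus strand, 24 CpG) and Brdt (chr5:107330944-107331243, plus strand, 23 CpG) belong to genes lower in 5C-Oct4GFP+ cells, and that of Mael (chr1:166238695-166238994, minus strand, 24 CpG) to a gene that was higher.
Stk31: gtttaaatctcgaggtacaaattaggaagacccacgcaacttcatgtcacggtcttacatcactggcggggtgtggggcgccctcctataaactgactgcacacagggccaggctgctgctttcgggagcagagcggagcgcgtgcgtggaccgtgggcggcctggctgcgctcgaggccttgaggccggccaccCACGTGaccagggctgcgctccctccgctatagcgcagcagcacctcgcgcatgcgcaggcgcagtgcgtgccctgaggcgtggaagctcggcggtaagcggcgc
Hormad1: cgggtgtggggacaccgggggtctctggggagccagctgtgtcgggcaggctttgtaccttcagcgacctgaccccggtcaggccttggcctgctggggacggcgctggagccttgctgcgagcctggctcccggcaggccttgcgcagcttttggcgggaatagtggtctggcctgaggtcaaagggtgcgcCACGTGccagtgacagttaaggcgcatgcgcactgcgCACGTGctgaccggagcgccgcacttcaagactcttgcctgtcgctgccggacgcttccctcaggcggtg
Brdt: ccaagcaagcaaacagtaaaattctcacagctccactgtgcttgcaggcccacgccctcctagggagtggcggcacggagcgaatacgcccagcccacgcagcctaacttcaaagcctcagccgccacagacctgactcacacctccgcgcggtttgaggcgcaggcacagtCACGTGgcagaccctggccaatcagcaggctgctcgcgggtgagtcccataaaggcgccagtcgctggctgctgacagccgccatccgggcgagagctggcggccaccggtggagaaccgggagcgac
Mael: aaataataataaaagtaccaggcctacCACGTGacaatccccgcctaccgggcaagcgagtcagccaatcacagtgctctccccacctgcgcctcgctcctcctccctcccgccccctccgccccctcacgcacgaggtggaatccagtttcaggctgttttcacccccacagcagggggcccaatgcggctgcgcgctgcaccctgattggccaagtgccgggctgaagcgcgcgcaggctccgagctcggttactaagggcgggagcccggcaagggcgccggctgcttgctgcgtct
Counted from the start, the E-box began at base -55 in Stk31 and at base -78 in Brdt. Hormad1 held 2 copies, the first at base -57, and in Mael it began at base -223. Hormad1, a meiotic chromosome protein, was at 15.7 against 98.4 TPM, and Brdt, a testis bromodomain protein, at 0.43 against 12.4 TPM. Hormad1, Brdt, Slc25a31, Ddx4 and Sycp3 are named here because of their promoters.

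Genes of the 2-cell stage and the Pramel family were compared for 7 of 20 listed, with 3 lower and none higher (median -0.89). Pramel6 was at 1.04 TPM with 5C and 100 TPM with mES medium, and Pramel7 at 1.16 against 30.6 TPM. Both belong to a family expressed in early embryos and naive cells, and the naive library held 102 TPM of Pramel6. Zscan4f, a 2-cell gene with near copies, was at 0.88 against 6.54 TPM, and Pramef12 at 36.6 against 68.9 TPM, below the 2-fold mark. Near copies in these families could share reads, so single values are uncertain.

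Wnt genes split in direction. Of 28 listed, 16 were compared, 5 called higher and 5 lower (median -0.17). Sp5 (chromosome 2, 70474923 to 70477729, plus strand), a direct target of β-catenin, was at 0.43 TPM with 5C and 116 TPM with mES medium (ratio 0.00369, interval 0.00120 to 0.00870). Cdx1, a homeobox target of Wnt and retinoic acid, was at 0.73 against 148 TPM. Axin2, the feedback inhibitor of the pathway, was at 4.98 against 98.3 TPM (ratio 0.0507, interval 0.0407 to 0.0623). The naive library, whose medium holds a GSK3 inhibitor, was at 150 TPM for Sp5 and 105 TPM for Axin2, beside the mES-Oct4GFP+ values. Against the primed libraries, which held 10.01 and 17.57 TPM of Axin2, the 5C-Oct4GFP+ value was lower still. Primed R1 cells were also kept with the GSK3 inhibitor CHIR99021, together with IWR-1, so they are no inhibitor-free reference for Wnt targets. The receptor Fzd7 went the other way, at 85.0 against 4.11 TPM (ratio 20.7, interval 16 to 27.1).

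Retinoic acid genes were compared for 11 of 19 listed, with 3 higher and 2 lower. Stra8 (chromosome 6, 34920163 to 34939344, plus strand), the retinoic acid target that opens meiosis, was at 0 with 5C and 306 TPM with mES medium, at least 717-fold lower against a floor of 3 counts in the library. It was at 4.67 TPM in the naive library and at most 0.33 TPM elsewhere, so Stra8 also parts the mES-Oct4GFP+ library from the naive one. Crabp2, which carries retinoic acid to its receptor, was higher at 179 against 4.55 TPM (ratio 39.4, interval 22.9 to 74.2). Crabp1 was at 18.5 against 4.95 TPM. Aldh1a2, which makes retinoic acid, was lower at 1.36 against 16.4 TPM. Hox genes, also retinoic acid targets, were compared for 2 of 35 listed, both lower, among them Hoxb9 at 1.83 against 14.8 TPM.

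LIF targets split. Of 13 genes listed for LIF and STAT3, 11 were compared, 4 called higher and 1 lower (median -0.28). Socs3, the feedback inhibitor of STAT3 signalling, was at 149 TPM with 5C and 39.6 TPM with mES medium (ratio 3.76, interval 3.35 to 4.24). Pim3, a kinase gene of the same pathway, was at 227 against 41.4 TPM (ratio 5.50, interval 4.90 to 6.19). The receptor Lifr was at 31.6 against 12.9 TPM, and Stat3 itself at 52.5 against 64.1 TPM. Tfcp2l1, described above, is a STAT3 target as well and lay in the opposite direction to Socs3.

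BMP genes were compared for 8 of 18 listed, with 4 higher and none lower (median 1.15). With genes down to 1 TPM included the median was 0.05 and 1 gene was lower. Id1, Id2 and Id3, inhibitors of helix-loop-helix factors and BMP targets, were called higher. Id1 was at 98.2 against 4.19 TPM (ratio 23.4, interval 13.3 to 45.7), Id2 at 80.8 against 11.8 TPM and Id3 at 91.3 against 17.9 TPM. Bmp4 was at 14.1 against 4.40 TPM. In the Oct4GFP- cells Id1 was at 391 TPM in 5C and 414 TPM in mES medium, and the primed libraries held 69.0 and 68.6 TPM. The naive library, at 4.51 TPM of Id1, was next to mES-Oct4GFP+ cells.

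Genes of insulin and IGF signalling were compared for 14 of 20 listed, with 7 higher and none lower (median 0.93). Igfbp7, an IGF binding protein by name, had the widest difference of the list. Igfbp7 was at 107 TPM with 5C and 1.72 TPM with mES medium (ratio 62.0, interval 28.3 to 170), and Igfbp2 at 831 against 128 TPM (ratio 6.47, interval 5.92 to 7.09). Igfbp3 was at 9.47 against 10.2 TPM. Lin28b, a paralog of Lin28a, was higher at 6.05 against 0.90 TPM. Igfbp7 was called higher in 5C medium in Oct4GFP- cells too, at 83.5 against 35.7 TPM.

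Glycolysis genes were higher in 5C-Oct4GFP+ cells, and this direction was opposite to that in Oct4GFP- cells. All 30 listed were compared, 14 called higher and none lower, with a median difference of 0.83. Slc16a3 (chromosome 11, 120948480 to 120960868, plus strand), the transporter that exports lactate, was at 154 TPM with 5C and 2.22 TPM with mES medium (ratio 69.5, interval 39.6 to 135). Pdk1, which keeps pyruvate out of the mitochondrion, was at 233 against 28.7 TPM (ratio 8.13, interval 7.11 to 9.33). The glucose transporter Slc2a1 was at 378 against 102 TPM, and Ldha, which reduces pyruvate to lactate, at 662 against 217 TPM. Eno1 was at 1539 against 283 TPM and Aldoc at 89.0 against 15.7 TPM, although Eno1 has pseudogene copies that could take some of its reads. Hk2, the first enzyme of the pathway, was at 155 against 96.4 TPM and the transporter Slc2a3 at 313 against 533 TPM, neither called. In Oct4GFP- cells the median over the same 30 genes was -0.86. Of 28 compared there, 14 were called lower in 5C medium and none higher. Over all 12263 genes compared there, 9.44% were lower and 8.21% higher. Slc16a3 was at 89.7 TPM for 5C-Oct4GFP- and 406 TPM for mES-Oct4GFP- cells, and Slc2a1 at 293 and 1765 TPM. The difference between the directions was not tested, as each rests on 1 library per medium.

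Targets of hypoxia signalling were compared for 20 of 24 listed, with 8 higher and 1 lower (median 0.50, and -1.12 over the same genes in Oct4GFP- cells). Ndrg1, a hypoxia and stress gene, was at 164 against 19 TPM, Egln3, an oxygen sensor of the pathway, at 42.0 against 5.10 TPM, and Epas1, which encodes HIF2α, at 90.5 against 14.1 TPM. Hif1a itself was at 69.8 against 51.4 TPM and Vegfa at 35.6 against 33.3 TPM, neither of them called. Nuclear genes of the respiratory chain did not move as a group. Of 61 compared out of 62 listed, none was called higher and 1 lower, with a median of 0.00. That gene was Cox7a1, a subunit form of muscle, at 13.9 against 181 TPM (ratio 0.0766, interval 0.0473 to 0.119). Cox5a was at 746 against 902 TPM and Uqcrb at 384 against 567 TPM. None of 13 genes of the mitochondrial genome had a row in the tables, so these were not analysed here.

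Cholesterol synthesis genes leaned higher by small amounts. All 26 listed were compared, and 23 lay above 0 with a median of 0.57, but only 6 were called higher and 1 lower. Pmvk was at 67.2 against 28.1 TPM and Dhcr7 at 98.4 against 45.3 TPM. Hmgcs1, which makes HMG-CoA, was nearly level at 210 against 194 TPM (ratio 1.08, interval 1.03 to 1.14). Ebp was lower at 48.4 against 138 TPM. Fatty acid genes were level, with none higher and 1 lower of 15 compared from 17 listed (median -0.03). The gene called lower was Mlxipl, the carbohydrate-responsive factor ChREBP, at 2.55 against 92.1 TPM (ratio 0.0277, interval 0.0187 to 0.0408), while Fasn was at 191 against 343 TPM and Srebf1 at 96.2 against 85.7 TPM. Among genes that handle lipoproteins, 15 of 21 were compared, 3 higher and 2 lower. Apoe was at 2123 against 551 TPM (ratio 3.86, interval 3.66 to 4.06), Fabp5, a fatty acid carrier, at 313 against 86.1 TPM, and Lpl, which releases fatty acids from lipoproteins, at 6.16 against 40.5 TPM.

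Genes of amino acid metabolism gave few calls, whereas genes that ATF4 induces gave more. Genes that ATF4 induces under amino acid shortage were compared for 20 of 22 listed, with 6 higher and 1 lower (median 0.85). Slc7a3, a transporter of arginine and lysine, was at 325 against 43.9 TPM (ratio 7.4, interval 6.60 to 8.32), Chac1 at 26.2 against 4.23 TPM and Atf3 at 35.4 against 1.26 TPM. Asns, which makes asparagine, went the other way at 154 against 790 TPM (ratio 0.195, interval 0.184 to 0.207). Of the 20 genes compared, 18 lay above 0 and 2 below. Trib3 and Ddit3 were at 38.7 against 20.9 TPM and 30.4 against 18.7 TPM, below the mark. Of 18 genes of serine, glycine and 1-carbon metabolism compared from 19 listed, 1 was higher and 1 lower, too few to set apart from the share of all genes. Gldc, which cleaves glycine, was at 144 against 46.0 TPM and Mat2a, which makes S-adenosylmethionine, at 109 against 348 TPM, while Phgdh was at 121 against 85.0 TPM and Tdh at 700 against 640 TPM. All 18 genes of proline, glutamine and polyamine metabolism were compared, with none higher and 1 lower, Gls2 at 10.5 against 41.6 TPM.

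Iron, selenium and redox genes were compared because N2 supplement brings transferrin and selenite. Of 22 iron and selenium genes listed, 21 were compared, 4 higher and 2 lower (median 0.10). Tfrc, the transferrin receptor, was lower at 41.2 TPM with 5C and 233 TPM with mES medium (ratio 0.177, interval 0.164 to 0.190). Slc40a1, the iron exporter, was higher at 7.15 against 1.37 TPM, and Selenop, a secreted selenium carrier, at 29.3 against 2.48 TPM. The receptor that takes iron up and the exporter thus lay in opposite directions. Gpx2 was at 448 against 195 TPM, while Gpx1 was at 1114 against 1039 TPM and Txnrd1 at 243 against 134 TPM. In Oct4GFP- cells Tfrc was lower in 5C medium as well, at 41.0 against 87.5 TPM. NRF2 and redox genes were compared for 20 of 21 listed, with 6 higher and none lower (median 0.68). Gclm, of glutathione synthesis, was at 311 against 97.7 TPM, Gsto1 at 269 against 58.1 TPM, Mt1, a metallothionein, at 1390 against 567 TPM and Hmox1 at 89.3 against 39.3 TPM. Nqo1 was at 82.2 against 62.9 TPM.

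Epithelial genes were higher in 15 and lower in 2 of the 30 compared from 34 listed (median 1.01). Esrp1, a splicing regulator of epithelial cells, was at 88.5 TPM with 5C and 0.82 TPM with mES medium (ratio 108, interval 52.2 to 268). The tight junction genes Cldn7 and Cldn6 were at 81.9 against 2.89 TPM and 82.2 against 11.1 TPM, and Rab25, a trafficking GTPase, at 75.2 against 3.68 TPM. Cdh1, encoding E-cadherin, was at 249 against 295 TPM (ratio 0.845, interval 0.813 to 0.879) and Epcam at 404 against 208 TPM (difference 0.96). Both stayed below the 2-fold mark. The members called lower, named after their values were seen, were the factor Elf3 at 26.5 against 175 TPM and the desmosomal cadherin Dsg2 at 19 against 66.1 TPM. Keratins were compared for 5 of 15 listed, and the 5 were higher, but each was under 5 TPM with mES medium and entered through its level with 5C medium. With keratins down to 1 TPM included, 11 were higher and none lower, and the median was 1.93 in place of 4.06. Krt17 (chromosome 11, 100256217 to 100261029, minus strand), a keratin of stressed epithelia, was at 121 TPM with 5C and 0 with mES medium, at least 198-fold higher. Krt18, of simple epithelia, was at 48.2 against 1.36 TPM and its partner Krt8 at 24.6 against 3.82 TPM. In Oct4GFP- cells both lists lay the other way. Of 33 epithelial genes compared there, none was higher and 14 were lower, against 9.44% lower of all genes. Over the genes compared in Oct4GFP+ cells, the medians there were -0.85 for epithelial genes and -1.76 for the 5 keratins. Krt18 was at 91.8 TPM for 5C-Oct4GFP- and 454 TPM for mES-Oct4GFP- cells. Factors of the epithelial to mesenchymal transition were compared for 4 of 12 listed. Snai3 was called higher at 8.90 against 0.59 TPM and Zeb1 lower at 3.14 against 9.53 TPM, while Snai1 was at 6.34 against 6.02 TPM.

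Calcium-binding S100 proteins and annexins, which are abundant in adherent somatic cells, were compared for 18 of 21 listed, with 11 higher and 1 lower (median 1.42). In Oct4GFP- cells the median over the same genes was -1.18, with none higher and 14 lower of 19 compared there. Anxa2 was at 153 TPM with 5C and 6.34 TPM with mES medium (ratio 24.1, interval 16.7 to 36.2), S100a6 at 144 against 9.30 TPM and Lgals3, a galectin in the list, at 131 against 9.73 TPM. Contractile genes and targets of TGFβ and YAP were compared for 18 of 28 listed, with 11 higher and 1 lower (median 1.66, and 0.94 with no level filter). Ccn1, a YAP target, was at 304 against 15.2 TPM (ratio 20.0, interval 16.4 to 24.7), Ccn2 at 178 against 27.9 TPM and Myl9, a myosin light chain, at 16.8 against 1.19 TPM. Matrix protease genes were compared for 10 of 21 listed, with 6 higher and 2 lower, among them Plaur, the urokinase receptor, at 19.6 against 1.36 TPM and Mmp2 at 19.1 against 2.43 TPM. Genes of integrins, laminins and basement membrane were compared for 21 of 30 listed, with 9 higher and 2 lower (median 0.23). Col4a1 was at 25.6 against 1.24 TPM and Lama4 at 14.1 against 0.81 TPM, while Itga5, the fibronectin receptor subunit, was lower at 10.8 against 27.8 TPM and Lama1 level at 26.4 against 25.4 TPM. Beside these lists stand the 11 fibroblast markers, at a summed 12.2 TPM with 5C and 15.8 TPM with mES medium. Col1a1 was at 1.5 against 4.05 TPM, Col3a1 at 1.78 against 2.23 TPM and Thy1, the marker above 5 TPM, at 5.16 against 0.72 TPM. From the longer list of 28 fibroblast genes, 10 were compared, with 7 higher and none lower (median 1.92), but with genes down to a TPM of 1 included the median was -0.10. Col5a2 was at 13.8 against 1.19 TPM, Loxl1 at 5.79 against 0.09 TPM and Vim at 333 against 335 TPM.

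**Figure D5:**
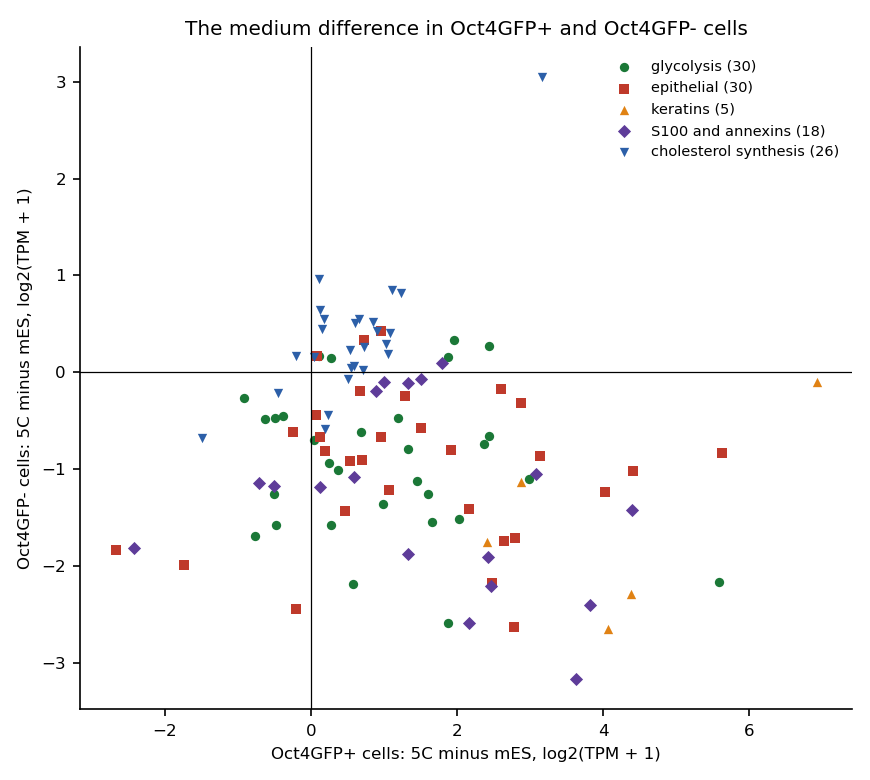
Difference of log2(TPM + 1) between 5C and mES medium in Oct4GFP+ cells (x axis) and Oct4GFP- cells (y axis) for the members of 5 gene lists compared in Oct4GFP+ cells; points are genes and shapes and colours mark the list, with the number of genes in brackets. Glycolysis genes, keratins, epithelial genes and S100 and annexin genes lie mostly to the right and below 0, cholesterol synthesis genes mostly to the right and above 0.

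Imprinted genes were compared for 26 of 33 listed, with 13 higher and 3 lower (median 1.04, and 0.51 with no level filter). The list was highly spread. Plagl1, a zinc finger gene of an imprinted network, was at 1.40 TPM with 5C and 135 TPM with mES medium (ratio 0.0104, interval 0.00655 to 0.0156). Usp29 was at 0 against 17.3 TPM, at least 83.4-fold lower. Most members that were called lay on the other side. Grb10, an adaptor that dampens insulin signalling, was at 125 against 15.8 TPM, and Peg3 at 21.4 against 42.5 TPM, which is not called. The noncoding RNAs H19 and Meg3 were at 49.6 against 7.45 TPM and 1012 against 318 TPM (ratio of Meg3 3.18, interval 3.01 to 3.37). Igf2 was at 5.94 against 1.35 TPM. In Oct4GFP- cells H19 and Igf2 lay the other way by a wide margin, with H19 at 297 TPM in 5C and 3110 TPM in mES medium and Igf2 at 95.03 against 972 TPM. Total levels do not show which allele was read.

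Lists of other lineages held few genes above the level filter. Trophoblast genes were compared for 6 of 19 listed, with 1 higher and 3 lower. Cdx2 was at 0 against 10.6 TPM, at least 44.0-fold lower, and Tfap2c at 29.4 against 86.9 TPM. Primitive endoderm genes were compared for 7 of 20, with 2 higher, both collagen IV genes, and 1 lower, Dab2 at 1.12 against 5.78 TPM. Neural genes were compared for 8 of 22, with 2 higher, among them Stmn2 at 250 against 101 TPM, and 3 lower, among them Tubb3 at 43.5 against 91.7 TPM. From the macrophage list 1 of 10 was compared, Cd68, a lysosomal protein, at 42.7 against 12.9 TPM. From the endothelial list 2 of 8 were compared, Vwf at 25.5 against 3.69 TPM and Tek at 22.7 against 7.49 TPM, with Cdh5 at 0.22 TPM in 5C-Oct4GFP+ cells and 0 in mES-Oct4GFP+ cells.

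Most regulators of chromatin lay within the 2-fold mark, as did most genes compared. Of 27 genes of polycomb, trithorax and Ctcf compared from 29 listed, 2 were higher and 2 lower. These counts are too small to set apart from the share of all genes. Bmi1, of polycomb complex 1, was at 8.99 against 39.9 TPM (ratio 0.225, interval 0.184 to 0.275) and Phf19, of polycomb complex 2, at 14.1 against 0.16 TPM. Ezh2 was at 144 against 207 TPM, Ctcf at 107 against 117 TPM, Wdr5 at 314 against 287 TPM and Kdm2b at 166 against 127 TPM, none of them called. All 25 genes of p53, Ink4 and the cyclins were compared, with 3 higher and 3 lower, near the share of all genes. Cdkn1a, the p53 target p21, was at 135 against 296 TPM, Ccnd2 at 9.96 against 1.07 TPM and Cdkn2a at 32.8 against 49.0 TPM.

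Interferon and MHC genes were compared for 19 of 27 listed, with 5 higher and 1 lower (median 0.82). Bst2, an antiviral membrane protein, was at 314 against 42.2 TPM (ratio 7.44, interval 6.05 to 9.24), Ifitm3 at 1053 against 423 TPM and B2m, the light chain of MHC class I, at 60.3 against 23.7 TPM. Irf9 was lower at 12.3 against 35.1 TPM. Genes of the sex chromosomes were compared for 6 of 8 listed. Xist, which silences 1 X chromosome in female cells, was higher at 22.2 against 1.45 TPM, and Zfy1 was lower at 2.86 against 14.5 TPM. Both libraries held Y-linked RNA, with Ddx3y at 21.02 against 36.6 TPM and Eif2s3y at 73.8 against 102 TPM. By chromosome, the median difference over genes at 5 TPM or more in both libraries ranged from -0.16 on chromosome 1 to 0.13 on chromosome 15 among the autosomes, was 0.11 on the X, and was -0.74 on the Y with 8 genes.

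Some of the widest differences were in genes of no list. Slc39a8, a zinc and manganese transporter, was at 89.6 TPM with 5C and 0.11 TPM with mES medium, Car4, a carbonic anhydrase, at 80.4 TPM against 0 (at least 97.8-fold higher), and Ramp3, a partner of calcitonin family receptors, at 81.8 against 0.26 TPM. Enpp3, an ectonucleotidase, was at 215 against 2.96 TPM (ratio 72.5, interval 49.8 to 110). Slc39a8, Car4, Ramp3 and Enpp3 were all above 30 TPM in both primed libraries and under 2 TPM in the naive library. On the other side, Aurkc (chromosome 7, 6995300 to 7003091, plus strand), the germ cell Aurora kinase, was at 1.40 against 255 TPM (ratio 0.00549, interval 0.00220 to 0.0114). Csf3r, the G-CSF receptor, was at 0.09 against 47.4 TPM. Crygd, Srarp and Khdc1c had no reads in 5C-Oct4GFP+ cells and were at 58.3, 50.2 and 38.7 TPM in mES-Oct4GFP+ cells, at least 59.0-fold, 79.4-fold and 138-fold lower. In the naive library Crygd, Srarp and Khdc1c were at 58.1, 56.0 and 48.3 TPM.

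The Oct4GFP- cells gave the same contrast of media in libraries that share no sample with the first. There 1007 genes (8.21%) were at least 2-fold higher in 5C medium and 1158 (9.44%) lower. Of the 1434 genes higher in Oct4GFP+ cells, 1292 were compared in Oct4GFP- cells, where 229 (17.7%) were higher and 193 (14.9%) lower. Of the 1305 lower genes, 820 were compared, with 73 (8.90%) higher and 104 (12.7%) lower. Genes not called in Oct4GFP+ cells were called in 5.08% and 3.86% of 8437 cases. In all, 333 of the 2112 genes called in Oct4GFP+ cells and compared in both kept their direction and 266 took the opposite one. Igfbp7, Slc39a8, Ramp3, Enpp3 and Tom1, an endosomal adaptor, were the largest of those higher in both, and Tom1 was at 32.4 TPM against 0 in Oct4GFP+ and 24.98 against 5.4 TPM in Oct4GFP- cells. Sp5, Plagl1, Tlx2, Hunk and Cox7a1 were the largest of those lower in both. Tlx2, a homeobox factor, was at 0 against 21.2 TPM in Oct4GFP+ cells, at least 48.0-fold lower, and at 0.93 against 51.2 TPM in Oct4GFP- cells. The genes higher in 5C-Oct4GFP+ cells had a median level of 20.96 TPM there and 4.45 TPM in mES-Oct4GFP+ cells, beside 28.4 and 26.7 TPM in the Oct4GFP- libraries, 4.18 TPM in the naive and 14.8 TPM in the converted primed library. The lower genes were at 5.47 against 22.4 TPM, beside 16.8 TPM in the naive library and between 5.34 and 7.37 TPM in all others.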

How the data were processed

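RNA of 7 libraries, 1 per group, was measured with TruSeq v2 kits, which keep no strand, on a MiSeq. Per the labels' processing notes and the study's methods, the authors used Bowtie and RSEM (versions not given in the sources used here) with build mm10, and deposited for each Ensembl gene an expected count (RSEM's estimated reads, not normalized), the length and effective length, TPM and FPKM. No column of the deposited tables was left out for want of a sample. No other normalization was applied to the deposited TPM, and FPKM served as an alternative.

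Libraries were grouped by their labels. The difference of log2(TPM + 1) was called at 1 or more among genes that reached 5 TPM in either of the libraries compared. For a gene without reads, a floor of 3 counts was used only for the fold given as at least, while differences, calls and intervals kept the 0. Exact 95% intervals used expected counts rounded to whole numbers, and intervals and floors cover counting error only. The log scale understates changes of low genes, and for a median gene 1 read equalled 0.0793 TPM with 5C and 0.137 TPM with mES medium. Members and 47 gene lists were chosen with earlier results of these data known, and the lists are not independent evidence. Genes were named by a rule: anchor genes of each list, the 4 members of each list with the widest difference, the 10 widest differences each way among genes with a full symbol, the 5 widest each way among protein-coding genes at 100 TPM or more, and the 5 widest each way with the same or the opposite call in Oct4GFP- cells. Others are said to be named after their values were seen, and a few genes of the lists are not reported here. Symbols and positions came from GENCODE M21 on GRCm38, which is mm10, for 28756 genes. Alternatives were FPKM, a pseudocount of 0.1, a lower or no level filter, median-ratio rescaling, thinning of the deeper library, a 4-fold mark, intervals wholly above or below 1, and classes at 2-fold. The scripts, tested on simulated data, ran under Python 3.11.15 with pandas 2.3.3, numpy 2.4.6, matplotlib 3.10.9 and scipy 1.17.1.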

Additional observations from a re-analysis of the deposited data

Results flagged for a closer look

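Many genes took opposite directions between the media in Oct4GFP+ and in Oct4GFP- cells, of which the 5 with the widest difference each way in Oct4GFP+ cells are given, with 5 lists whose medians lay at least 0.5 from 0 on opposite sides. Each value rests on 1 library per medium and the difference between the directions was not tested. Among genes higher in 5C medium in Oct4GFP+ and lower in Oct4GFP- cells, Slc16a3 differed by 5.59 and -2.17 on the log2(TPM + 1) scale, Myrf, a myelin regulatory factor, by 5.48 and -1.01, and Pla2g7, a lipoprotein-associated phospholipase, by 4.80 and -2.26. Fosb differed by 4.55 and -1.05, and Emp1, an epithelial membrane protein, by 4.49 and -1.43. In the reverse direction, Ckb, the brain creatine kinase, differed by -3.15 in Oct4GFP+ and 1.27 in Oct4GFP- cells, and Nkx6-2, a homeobox factor, by -3.02 and 1.96. Hist1h2ap, a histone gene with near copies, differed by -2.91 and 1.94, Aldh1a2 by -2.89 and 2.35, and Nkain4 by -2.86 and 1.25. Over lists, the medians in Oct4GFP+ and Oct4GFP- cells were 0.83 and -0.86 for glycolysis, 1.01 and -0.85 for epithelial genes, and 4.06 and -1.76 for keratins, where 1.70 replaced 4.06 without the level filter. They were 1.42 and -1.18 for S100 proteins and annexins, and 1.04 and -0.63 for imprinted genes, where 0.51 replaced 1.04 without it. For glycolysis in Oct4GFP- cells the paper reports the reverse direction, over its own marker list.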

How the results depend on the processing

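No paired analysis was possible because each group holds 1 library. With a 4-fold mark, 542 genes were higher and 444 lower, 986 in all, and in Oct4GFP- cells 167 of the 656 then compared kept the direction and 119 took the opposite one. With the level filter at 1 TPM, or none, 2055 genes were lower and 4138 called in all, while the number of higher genes stayed within 1.5 times. Classes drawn at 2-fold had medians of 1.13 for somatic, -0.57 for pluripotent and 0.92 for primed genes, and with a pseudocount of 0.1 the medians were 3.0 for somatic and -0.48 for pluripotent genes. The median of fibroblast genes turned from 1.92 to -0.10 with the lower or no filter, since weaker genes then enter. With no filter the median went from 3.38 to 2.73 for immediate early genes, from 1.15 to 0.03 for BMP genes, from 4.06 to 1.70 for keratins, from 1.66 to 0.94 for contractile genes, from 1.19 to 0.28 for matrix proteases, from 0.53 to -0.24 for retinoic acid genes, from 1.04 to 0.51 for imprinted genes and from -1.05 to -0.20 for trophoblast genes. FPKM (2511 called), median-ratio rescaling (2760), thinning (2740), a pseudocount of 0.1 (2965) and intervals wholly above or below 1 (2715) gave counts within 1.5 times of 2739. Of 307 named or anchor genes no difference reversed under FPKM, rescaling or the smaller pseudocount, and 14 moved by more than their interval under the last. The main limits are the lack of replicates, the media that differ in several components, and the doubt about the identity of the mES-Oct4GFP+ library. That library lay close to the naive one. Any retroviral reads within Pou5f1, Sox2, Klf4 and Myc are a further limit. So is the depth of mES-Oct4GFP+ cells, at which 1 read on a median gene equals 0.137 TPM.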
